A study of Drosophila melanogaster with 6 samples.

Results

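The genes described here are *upd2*, *upd3* and *Socs36E*, 3 of the 367 genes in the deposited listing of transcripts that differed between *Drosophila melanogaster* heads 4 hr after penetrating traumatic brain injury (PTBI) and uninjured heads. They were found by their symbols, and all 3 stand among the 259 genes listed as higher after PTBI. Bulk RNA-Seq was run on 3 samples of PTBI heads and 3 samples of uninjured control heads, all from young males of the cross of w; UAS-mCD8-GFP;; OK107-GAL4 with yw, so that both groups carry the mushroom body driver OK107-GAL4 and the membrane GFP transgene. Flies were within 6 hr of eclosion, each sample was a pool of about 100 to 120 heads, and the PTBI flies were pierced with a needle in both hemispheres of the central brain under CO2. Controls were of the same age and sex and without injury; the sources used here do not say whether they were anaesthetised, so piercing and anaesthesia cannot be told apart. Levels are given as RPKM, in which the reads of a gene are divided by its length and by the size of the library, and which allows levels of different genes to be compared. The authors limited the listing to genes that differed by at least 2-fold in this same comparison, with an adjusted p below 0.05. A gene outside it is called not listed, and its level was not analysed here.

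The Unpaired proteins are the secreted ligands of the JAK/STAT pathway of the fly. They bind the receptor Domeless, which activates the kinase Hopscotch and through it the transcription factor Stat92E. *upd2* and *upd3* are the members of the family best known as cytokines released by stressed, wounded or infected tissue, whereas *upd1* is best known for its roles in development. *Socs36E* is a target of Stat92E whose product restrains the pathway, so its transcript is often read as a sign of pathway activity.

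*upd3* transcripts were close to absent in control heads and readily measured in all PTBI heads. The level was 1.55, 2.40 and 1.98 RPKM in PTBI replicates 1, 2 and 3, and 0.0756, 0.0125 and 0.0509 RPKM in control replicates 1, 2 and 3. The groups did not overlap, and the lowest PTBI sample stood 20.5-fold above the highest control sample. The mean of the PTBI samples was 1.98 ± 0.427 RPKM and that of the controls 0.0463 ± 0.0318 RPKM (SD, n = 3 each), a ratio of 42.8. This ratio was the first in rank among the 259 genes listed as higher, while by the difference in log2(RPKM + 0.1), which holds down the change of low genes, *upd3* was in place 12. It rests on few control reads, since 1 read of *upd3* was worth 0.0125 to 0.0185 RPKM in these libraries. The controls held 5, 1 and 3 reads, and the PTBI samples held 104, 130 and 155. Summed over each group, these reads gave a ratio of 44.6 with an exact 95% interval of 23.2 to 98.2, which covers counting error only.

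*upd2* also rose from a control level of a few reads. It was at 1.17, 2.32 and 1.61 RPKM in PTBI replicates 1, 2 and 3, and at 0.0508, 0.126 and 0.0190 RPKM in the 3 controls. All PTBI samples were again above all control samples, the lowest of them 9.31-fold above the highest control. The means were 1.70 ± 0.582 and 0.0652 ± 0.0548 RPKM (SD, n = 3 per group), a ratio of 26.1, in place 4 of the genes listed as higher by ratio and in place 20 by the difference in log2(RPKM + 0.1). The reads were 70, 112 and 112 after PTBI and 3, 9 and 1 in controls, so that control replicate 2 held most of the control signal. Without that sample the ratio was 48.7. The exact 95% interval of the ratio of summed reads, 23.3, ran from 13.4 to 44.3. It overlapped the interval of *upd3*, and whether the cytokine genes differ in the size of their rise was not tested.

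*Socs36E* differed from the cytokine genes in that it was already well expressed in control heads. Its level was 10.9, 12.5 and 10.4 RPKM in control replicates 1, 2 and 3, and 21.2, 34.0 and 25.6 RPKM in PTBI replicates 1, 2 and 3. The groups did not overlap, with a factor of 1.71 between the lowest PTBI and the highest control sample. Such separation is not particular to the members. It was also seen for each listed gene of the pathway, secreted signal and marker lists, and the authors listed genes for this contrast. Its share over all listed genes was not counted. The PTBI mean of 27.0 ± 6.50 RPKM against a control mean of 11.2 ± 1.09 RPKM (SD, n = 3 each) made a 2.40-fold rise on 965 to 3152 reads per sample. By this ratio *Socs36E* was in place 201 of the 259 genes listed as higher (178 by the log2 difference), but by level after PTBI it was in place 101, above *upd3* (place 181) and *upd2* (place 191).

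**Figure D1:**
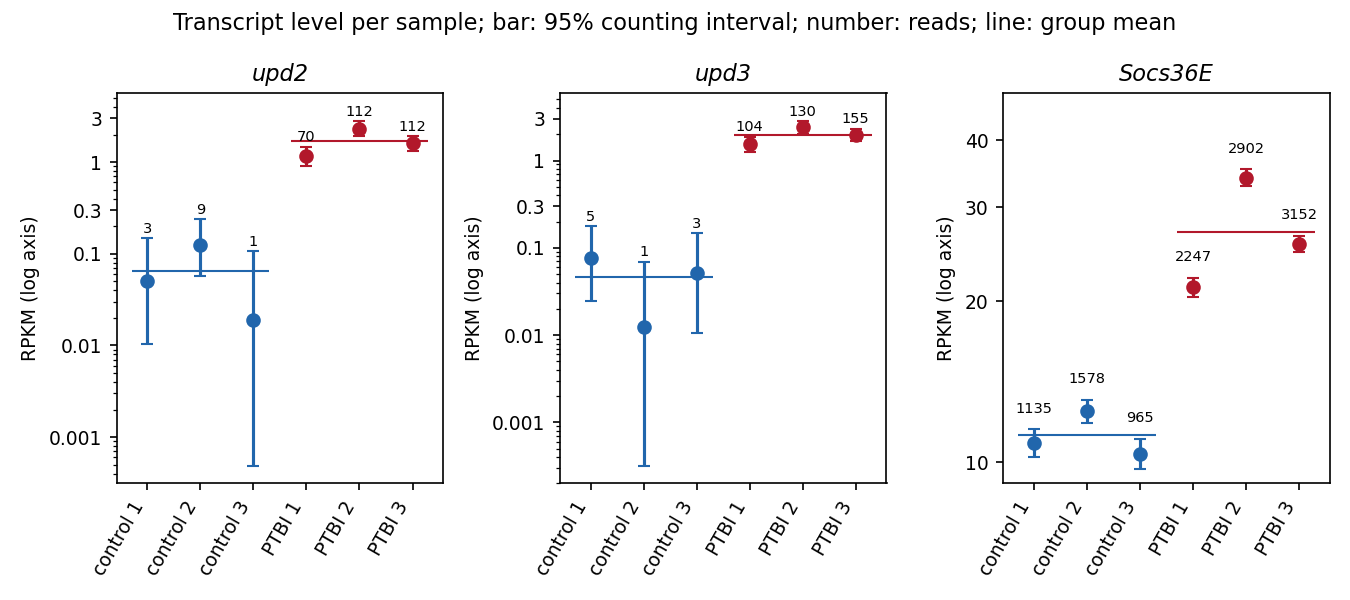
Level of *upd2*, *upd3* and *Socs36E* in each of the 3 control (blue) and 3 PTBI (red) samples, in RPKM on log axes whose ranges differ between panels. Points are samples, bars are exact 95% Poisson intervals of the reads (counting error only), the number over each bar is the reads behind it, and lines are group means. PTBI samples lie above all controls in every panel, which is not particular to the members, as the authors listed genes for this contrast. The control intervals of the cytokine genes are wide because they rest on 1 to 9 reads.

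Tested over all 367 listed genes, the 3 transcripts were higher after PTBI (limma on log2(RPKM + 0.1), Benjamini-Hochberg adjustment). The difference in log2(RPKM + 0.1) was 3.83 for *upd3* (SE 0.23, adjusted p = 9.0e-06), 3.45 for *upd2* (SE 0.31, adjusted p = 3.8e-05) and 1.23 for *Socs36E* (SE 0.21, adjusted p = 0.00059). All 3 members were thus called higher, as were 258 of the 259 genes listed as higher (70.3% of all 367 listed genes). As the authors listed the genes for their change between these very samples, nothing further is read from that share, and the p-values are no independent evidence. For 1 gene on its own, a two-sided exact permutation test of 3 against 3 samples cannot go below p = 0.1, and each of the 3 genes gave p = 0.1. The pseudocount holds down the change of the low genes: on reads recovered from the RPKM, voom gave log2 differences of 5.48 for *upd3*, 4.69 for *upd2* and 1.24 for *Socs36E*. The median of log2(RPKM + 0.1) over the listed genes of a sample was on average 0.75 higher in PTBI than in control samples, as the listing holds more genes that rose than fell. With each sample centred on its own median, the differences were 3.09, 2.70 and 0.49, the last with an adjusted p of 0.028.

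Among the genes listed as higher, *upd2* and *upd3* went from near silence to over 1 RPKM, though by the difference in log2(RPKM + 0.1) they were in places 20 and 12. A total of 24 of the 259 genes had a control mean under 0.1 RPKM, and *upd2* and *upd3* were the 2 of these with a mean over 1 RPKM after PTBI. The next of them, *CG13218*, reached 0.762 RPKM from 0.0604 RPKM. The stress peptide gene *TotB*, whose control mean of 0.172 RPKM lay outside the first limit, made a similar move to 1.64 RPKM. These limits were set after the values were seen, and the genes were listed for this difference, so this is a description. In comparison, the median gene listed as higher was at 3.87 RPKM in controls and 13.9 RPKM after PTBI, a level between those of the cytokine genes and *Socs36E*. In whole heads, more cells expressing a gene and more transcript per cell cannot be told apart.

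**Figure D2:**
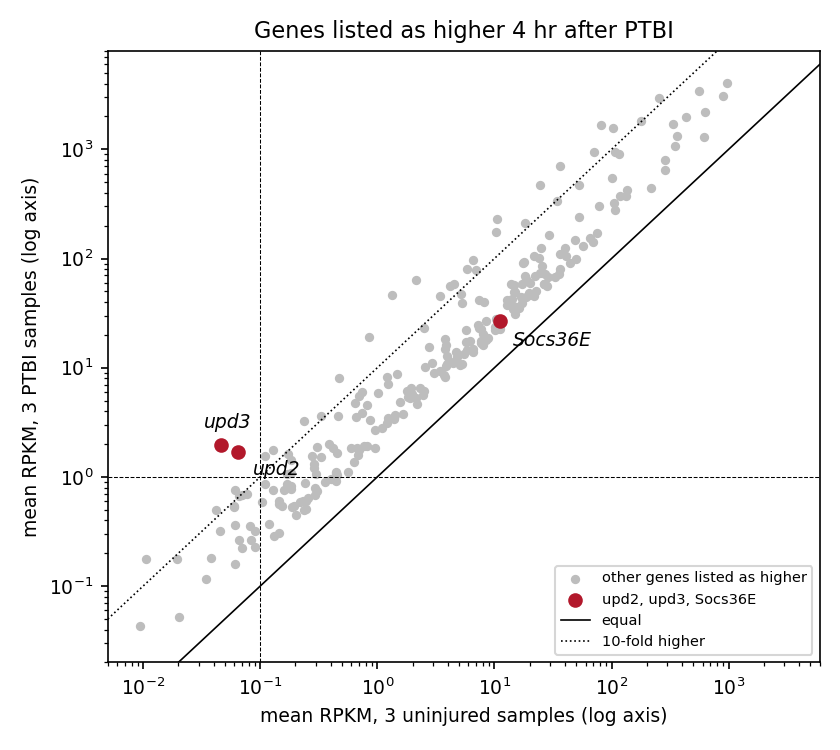
Mean RPKM of the 3 PTBI samples against the mean of the 3 uninjured samples for the 259 genes listed as higher, both on log axes, with the 3 members in red. Dashed lines mark 0.1 RPKM in controls and 1 RPKM after PTBI. *upd2* and *upd3* are the points left of the first line and above the second, while *Socs36E* lies in the main band of genes between the lines of equal levels (solid) and of a 10-fold rise (dotted).

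The 3 genes followed the same order among the PTBI samples. Each was lowest in replicate 1, intermediate in replicate 3 and highest in replicate 2. For *Socs36E* the counting intervals of the 3 PTBI samples did not overlap, at 20.4 to 22.1, 32.8 to 35.3 and 24.7 to 26.5 RPKM in replicates 1, 2 and 3. For *upd3* the interval of replicate 1 (1.27 to 1.88 RPKM) lay below that of replicate 2 (2.01 to 2.85 RPKM), and replicate 3 overlapped both. For *upd2* the intervals were 0.913 to 1.48 RPKM in replicate 1 and 1.91 to 2.80 RPKM in replicate 2, and that of replicate 3 (1.32 to 1.94 RPKM) overlapped both. This order was also the most common one among the genes listed as higher, held by 85 of 259 (32.8%), and 131 of these genes were highest in PTBI replicate 2 while 148 were lowest in replicate 1. The coefficient of variation over the PTBI samples was 21.6% for *upd3*, 34.2% for *upd2* and 24.1% for *Socs36E*, against a median of 18.6% over the genes listed as higher. In the controls the order was not shared. *upd2* and *Socs36E* were highest in control replicate 2, in which *upd3* had its single read. For *upd2* and *upd3* the counting intervals of the controls overlapped, so their control orders are not established.

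Ratios taken within a sample show how the cytokine genes stood to each other and to their feedback inhibitor. In the PTBI samples *upd3* was slightly above *upd2*, at 1.32, 1.03 and 1.23 times its RPKM in replicates 1, 2 and 3. The counting intervals of *upd3* and *upd2* overlapped in each PTBI sample, so their order within a single sample is not established. In controls the ratio was 1.49, 0.0991 and 2.67, a wide range set by 1 to 9 reads. A two-sided exact permutation test of the log2 ratio gave p = 1 (n = 3 per group, smallest possible p = 0.1), and with so few control reads a change of the ratio was not detectable at this depth. The level of *Socs36E* relative to *upd3* was 13.7, 14.2 and 12.9 times in PTBI replicates 1, 2 and 3, and 144 to 1001 times in controls. The PTBI values rest on 104, 130 and 155 reads of *upd3*. Their counting error is wider than the spread of these ratios, so whether the ratio was constant cannot be told. Relative to *upd2* it was 14.6 to 18.1 times after PTBI and 99.1 to 545 times in controls. Neither ratio overlapped between the groups (two-sided exact permutation p = 0.1 each, the smallest 3 against 3 samples allow), the cytokine genes having risen by more than *Socs36E*.

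**Figure D3:**
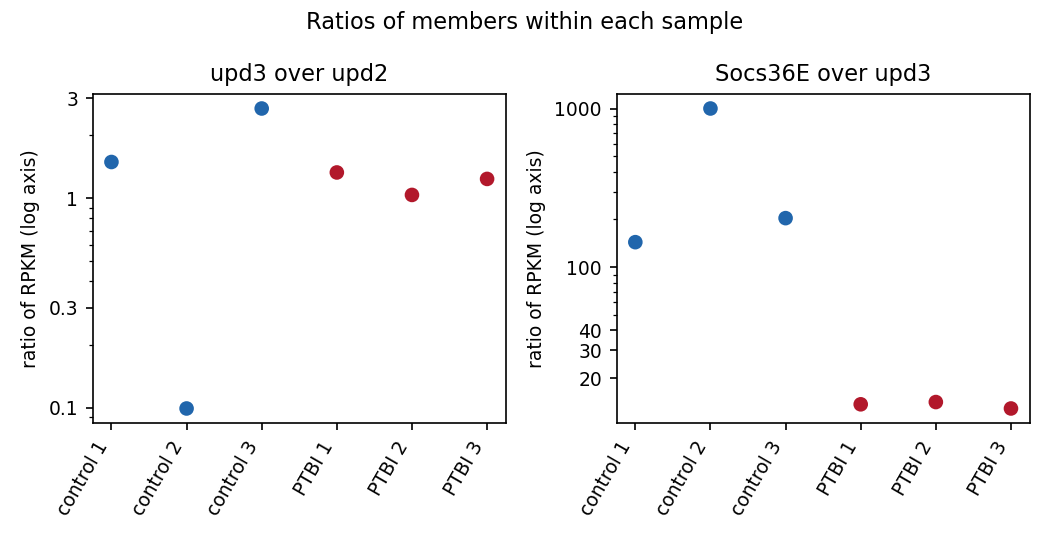
Ratio of the RPKM of *upd3* to *upd2* (left) and of *Socs36E* to *upd3* (right) within each control (blue) and PTBI (red) sample, on log axes. The ratio of the cytokine genes is between 1.03 and 1.32 in the PTBI samples and scattered in controls, and *Socs36E* is 12.9 to 14.2 times *upd3* in the PTBI samples.

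The Unpaired genes lie together on chromosome X, in the coordinates of the Ensembl 115 annotation of BDGP6. *upd2* (18240654 to 18243284, minus strand) and *upd3* (18277233 to 18284596, plus strand) are transcribed away from each other, with 33.9 kb between them, and *upd1* (18305354 to 18309291, minus strand) lies 20.8 kb beyond *upd3*. *upd2* and *upd3* each have 1 annotated transcript in 4 exon blocks, with 1980 and 2221 bp of exons, and no annotated gene overlaps either of them. Despite the proximity of the 3 ligand genes, *upd1* was not listed. The annotated genes between *upd2* and *upd3*, the coding gene *CG15059* and the noncoding *lncRNA:CR45607* and *lncRNA:CR45613*, were not listed either, nor was *lncRNA:CR15061* between *upd3* and *upd1*. A gene not listed may have changed by less than the authors' limits or have been too low to be tested. *Socs36E* is on chromosome 2L (18138675 to 18152417, minus strand), with 3 annotated transcripts and 3503 bp of exons. Its nearest neighbours *kel* and *CG17681* were not listed, and the noncoding *lncRNA:CR44478* inside it, on the opposite strand, shares no exon sequence with it.

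**Figure D4:**
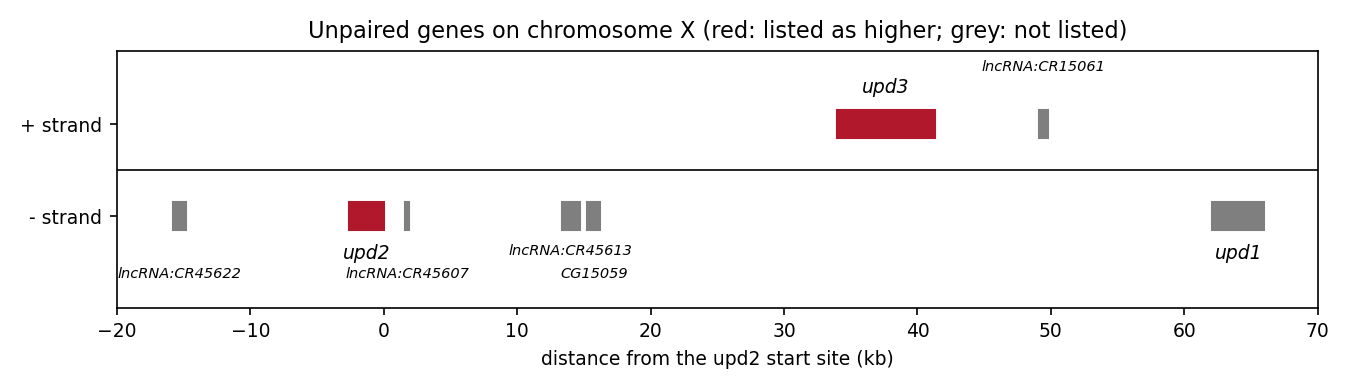
Annotated genes around the Unpaired genes, drawn to scale by their distance in kb from the *upd2* start site and split by strand. Red genes were listed as higher after PTBI and grey genes were not listed. *upd2* and *upd3* are the listed genes of this stretch, and *upd1*, in grey, lies beyond *upd3*.

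Genes of the JAK/STAT pathway were listed in both directions. Of 30 annotated genes in 5 lists of the pathway, the 3 members included, 9 were listed as higher after PTBI, 2 as lower and 19 were not listed. Of all 13986 annotated protein-coding genes, 1.69% were listed as higher and 0.708% as lower, among them genes too low to be measured in heads. All 11 listed pathway genes passed the limma test in their direction, as did 366 of the 367 listed genes (70.3% called higher and 29.4% lower), so nothing is read from that count. Of the 14 genes that make up the signalling machinery and its negative regulators, the 3 members were the only ones listed. The receptor genes *dome* and *et*, the kinase gene *hop*, the transcription factor gene *Stat92E*, the other *Socs* genes *Socs16D* and *Socs44A*, and the inhibitors *Ptp61F*, *Su(var)2-10*, *ken* and *apt* were not listed. Of 16 targets and components, 6 were listed as higher and 2 as lower. *Nop56*, *regucalcin* and *nkt* are in that list because the study names them as pathway components beside these data, so they are not independent of the comparison. The study also names the 3 members and *TotA* from these data, so the counts of listed pathway genes are no independent evidence. The median difference in log2(RPKM + 0.1) over the 8 listed targets and components was 1.42, beside 1.20 over all 367 listed genes.

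Of the 8 Turandot stress peptide genes, *TotA* and *TotB* rose, and *TotC*, *TotE*, *TotF*, *TotM*, *TotX* and *TotZ* were not listed, nor were the transcription factor genes *chinmo* and *zfh1*. *TotB* was at 1.57, 1.72 and 1.62 RPKM after PTBI and 0.319, 0.0526 and 0.143 RPKM in controls, where it had 5, 1 and 2 reads. After PTBI it was thus about as abundant as *upd2* and *upd3*. *Tep2*, which encodes a thioester protein of innate immunity, was at 133 to 164 RPKM after PTBI and 47.7 to 49.4 RPKM in controls, while its relative *Tep1* was at 0.644 to 0.984 and 0.0655 to 0.199 RPKM. *TotA* and *vir-1*, both long used as readouts of Stat92E, rose by 1.74 (SE 0.32) and 1.02 (SE 0.17) in log2(RPKM + 0.1), on either side of the 1.23 (SE 0.21) of *Socs36E*. *TotA* does not report on Stat92E alone, as the paper cites earlier work in which it also needed Rel, the transcription factor of the Imd immune pathway. *Nop56*, a nucleolar protein gene, rose by 1.25 (SE 0.16). The genes that fell were *regucalcin*, at 64.9 to 73.3 RPKM after PTBI and 152 to 174 RPKM in controls, and *nkt*, listed as *CG14141*, at 15.5 to 20.7 RPKM and 47.1 to 52.1 RPKM.

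**Figure D5:**
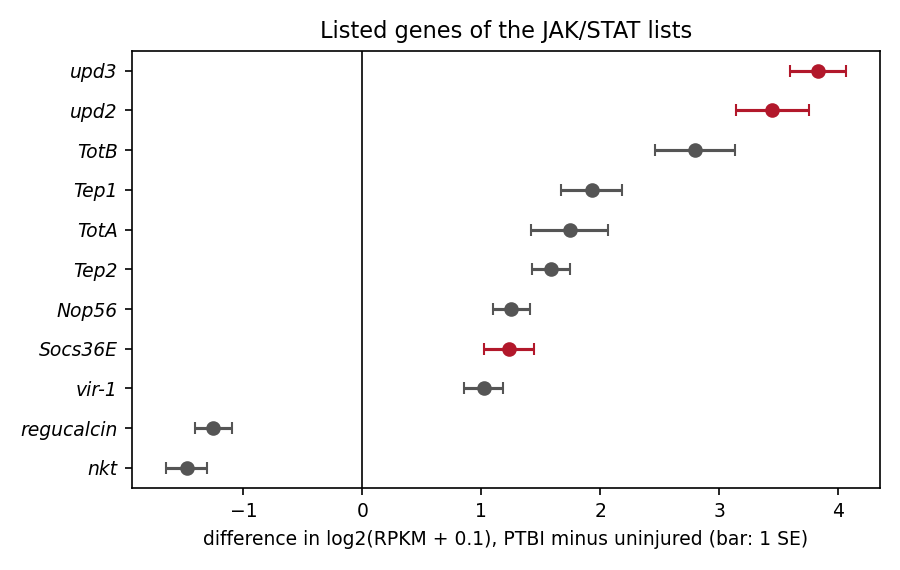
Difference in log2(RPKM + 0.1) between PTBI and uninjured samples for the 11 listed genes of the JAK/STAT lists, with bars of 1 SE from limma (n = 3 per group) and the 3 members in red. *upd3* (3.83) and *upd2* (3.45) have the highest values, *Socs36E* (1.23) lies between *Nop56* and *vir-1*, and *regucalcin* and *nkt* are below 0.

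Other secreted signals were looked up as well. Of 49 annotated genes for growth factors, cytokines and related ligands, the Unpaired genes included, 4 were listed as higher and 45 were not listed, against the 1.69% of all annotated coding genes listed as higher. Beside *upd2* and *upd3* these were *spz*, the Toll ligand gene, and *Ilp8*, a relaxin-like peptide gene known to respond to tissue damage. The study itself names *upd2*, *upd3* and *spz*, so this count is not independent of the comparison. *spz* was at 36.5, 43.0 and 52.8 RPKM in PTBI replicates 1, 2 and 3 and at 16.1, 18.5 and 16.1 RPKM in controls. *Ilp8* was at 1.53, 1.61 and 2.16 RPKM after PTBI, in the range of *upd2* and *upd3*, but its control level of 0.890, 0.702 and 0.521 RPKM was above theirs in every sample. Both were highest in PTBI replicate 3, unlike the cytokine genes. The genes for the EGF receptor ligands *spi*, *Krn* and *vn*, the TNF ligand *egr* and the PDGF- and VEGF-related factors *Pvf1*, *Pvf2* and *Pvf3* were not listed. Of 16 genes of the JNK pathway, which is known to induce *upd* genes in damaged tissue, 4 were listed as higher, again beside 1.69% of all coding genes: *Ets21C* (17.1-fold), *Gadd45* (2.53-fold), *Ilp8* (2.51-fold) and *Mmp1* (2.19-fold). The 12 others, among them the kinase genes *hep* and *bsk*, the transcription factor genes *Jra* and *kay* and the feedback phosphatase gene *puc*, were not listed. The study itself names *Ets21C* and *Mmp1* from these data, and the lists were chosen with earlier results known. This count is therefore not independent of the comparison.

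The listed genes whose values ran most like those of *upd2* over the 6 samples were *AttB*, *AttA* and *Ets21C*. Likeness was measured as the root mean square difference of log2(RPKM + 0.1) after centring each gene on its own mean, which came to 0.11, 0.16 and 0.24 for these genes. *AttA* and *AttB*, neighbouring antibacterial peptide genes, are near-identical and may share reads. *Ets21C*, an ETS transcription factor gene, was at 6.49, 9.64 and 8.01 RPKM after PTBI and 0.453, 0.609 and 0.348 RPKM in controls, the same orders as *upd2* in both groups. Nearest to *upd3* were the antimicrobial peptide genes *Mtk* and *DptB*, at 0.23 and 0.26, and *CG45045*, listed as *CR45045*, at 0.26. *upd2* and *upd3* were 0.48 apart from each other, a value that takes in the unlike orders of their controls and their unlike rise. The control orders of *upd2* and *upd3* rest on 1 to 9 reads per sample with overlapping counting intervals, so they are not established. Nearest to *Socs36E* was *cher*, which encodes an actin cross-linking filamin, at 0.047, followed by *CG4267* and *CG1299* at 0.091 and 0.092. *cher* was at 34.6, 54.7 and 45.0 RPKM after PTBI and 18.7, 20.6 and 16.9 RPKM in controls, a 2.39-fold rise. All these genes were listed for the same contrast, which makes their profiles alike to begin with.

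Markers of the cell types of the head were looked up beside these results. Of 52 marker genes, 6 were listed as lower and none as higher, beside 0.708% and 1.69% of all annotated coding genes. They were 2 of 8 glial markers, *wrapper* and *Mdr65*, and 4 of 8 fat body markers, *apolpp* (listed as *Rfabg*), *Lsp2*, *fit* and *Lsp1beta*. The summed level of the listed glial markers was 20.9 to 22.8 RPKM after PTBI and 58.9 to 64.8 RPKM in controls, and that of the listed fat body markers 136 to 318 and 1087 to 1715 RPKM. Each sum holds only markers listed as lower, so its fall was fixed by the listing and does not measure the cell type. *Lsp2* made up most of the fat body sum in controls, at 668 to 1179 RPKM. The levels of the markers not listed were not analysed. None of the 10 haemocyte markers, among them *Hml* and *NimC1*, was listed, nor any of 10 neuronal, 9 photoreceptor and 7 muscle markers. The labelled tissue could thus not be checked against its defining genes, and the part of cell composition in the rise of the cytokine genes and *Socs36E* was not tested.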

How the data were processed

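RNA-Seq libraries of 6 head samples were assigned to 4 hr PTBI or uninjured control from the sample titles. The authors made strand-specific mRNA libraries, read as single 50 bp ends, mapped the reads with Subjunc from Subread to a FlyBase genome (release: not given in the sources used here), compared the alignments with the gene annotation, and normalized and tested the counts by voom and limma. The deposited values used are the authors' RPKM of each sample. Columns with the authors' mean expression, fold changes and p-values were not used. Genes under 2-fold, or with an adjusted p of 0.05 or above, had been left out by the authors.

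The listed IDs were matched to Ensembl 115 (360 of 367). With its exon lengths, the RPKM of 357 genes, the 3 members included, came to whole reads (tolerance 0.02) in each library. Library sizes so found were 24.3 to 35.2 M reads after PTBI and 26.5 to 36.2 M in controls; none was a whole number, so they may include a scaling factor. Whether strand was used in counting is not stated.

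Differences over 367 genes were tested on log2(RPKM + 0.1) with limma 3.58.1 (R 4.3.3), after the fit had been tested on simulated data. Calls were made at an adjusted p under 0.05. A pseudocount of 0.1 was taken because the cytokine genes are under 0.1 RPKM in controls. The members, lists and settings were chosen with earlier results of these data known. Named genes are the members, listed genes of the pathway and secreted signal lists, the 3 most alike genes per member, and neighbouring genes. *CG13218*, *CG15155* and the marker genes are additions. Labels call the samples biological replicates. Alternatives were pseudocounts of 1 and 0.01, a filter at a mean RPKM of 0.5, a replicate block, median centring, recovered reads and leaving out each sample. Tables and exact tests were made with scipy 1.17.1 and pandas 2.3.3 in Python 3.11.15.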

Additional observations from a re-analysis of the deposited data

How the results depend on the processing

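*upd2*, *upd3* and *Socs36E* were higher after PTBI at an adjusted p under 0.05 (limma) under all 7 alternative settings and with each of the 6 samples left out. The difference in log2(RPKM + 0.1) with a sample left out ran from 3.21 to 3.70 for *upd2*, 3.65 to 3.99 for *upd3* and 1.05 to 1.39 for *Socs36E*, and the ratio of means from 19.3 to 48.7, 31.3 to 62.5 and 2.08 to 2.65. With a pseudocount of 1 the differences of *upd2* and *upd3* were 1.32 and 1.50, and with 0.01 they were 4.73 and 5.32. The listed genes called higher numbered 258, or 173 with sample medians centred, and those called lower 108 in both. With a sample left out, 257 to 258 were called higher. As the genes were listed for this contrast, passing there was close to fixed in advance and not particular to the members. With the replicate number as a block, 258 and 108 genes were called, and the adjusted p was 0.00042 for *upd2*, 0.00055 for *upd3* and 0.0015 for *Socs36E*. Same-numbered samples deviated together with correlations of 0.16, 0.11 and 0.097, each sample most with its own number, but the labels tie no number to a batch or day. The low control reads of *upd2* (13) and *upd3* (9) limit the precision of their ratios.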

Other observations

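Next to *Socs36E* on chromosome 2L, a neighbour outside the rule for named genes was also listed as higher and was picked out after its values were seen. *CG15155* (18154851 to 18155942, plus strand) starts 2.43 kb from the *Socs36E* start site, beyond *CG17681*, and is transcribed in the opposite direction. It was at 4.74, 9.90 and 3.88 RPKM in PTBI replicates 1, 2 and 3 and at 1.88, 1.79 and 1.70 RPKM in controls, on 41 to 219 reads per sample. The difference in log2(RPKM + 0.1) was 1.61 (SE 0.32, adjusted p = 0.0013 by limma). Like the 3 members it was highest in PTBI replicate 2, but replicate 3 and not replicate 1 was lowest.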
